A study of Mus musculus with 41 samples.

Results

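The genes described here are the replication-dependent histone genes of the mouse, which make most of the histone protein that packages newly copied DNA. They were taken by name: every protein-coding gene of both count tables whose GENCODE M21 symbol starts with Hist1h, Hist2h, Hist3h or Hist4h. The rule found 67 genes of 55536 in each table, after 3 pseudogenes with such symbols were left out. They comprise 6 genes for the linker histone H1, 18 for H2A, 18 for H2B, 12 for H3 and 13 for H4. The large Hist1 cluster on chromosome 13 holds 54 of them, the Hist2 cluster on chromosome 3 holds 10, the Hist3 cluster on chromosome 11 holds 2 and Hist4h4 lies alone on chromosome 6.

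Core histones H2A, H2B, H3 and H4 form the nucleosome, and H1 binds the DNA that links nucleosomes. Genes of this family are switched on as cells enter S phase by the factor NPAT. Their messages have no intron and normally no poly(A) tail: the transcript is cut just after a small stem-loop by the U7 small nuclear particle, and the stem-loop binding protein SLBP holds and protects that end. Some of the genes can also make a longer, polyadenylated message that runs past the stem-loop, known from cells that leave the cycle or differentiate. In the testis, spermatogonia make the usual forms, and later germ cells add testis histones such as H1t.

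The series studied the homeobox transcription factor RHOX10 in mouse spermatogonial stem cells with 3 assays and 41 samples. RNA-seq used C57BL/6 germ cells sorted from testis for an OCT4-eGFP reporter, with 4 libraries labelled wild-type (WT) and 4 labelled Rhox10-null (KO), each from the pooled testes of 3 mice; the mice's age is not given in the sources used here. Total RNA went into a directional kit. iSLAM-seq used cultured germline stem cells from neonatal testes in which an shRNA lentivirus had knocked down the cells' own Rhox10, in both arms. One arm (Rhox10) carried a Rhox10-ERT2-mCherry fusion that responds to 4-hydroxytamoxifen and the other (Ctrl) the ERT2-mCherry vector without Rhox10, each at 0, 0.5, 1, 2, 4 and 8 h with 2 libraries per vector and time, 24 in all. Its kit starts from poly(A) tails and reads 3′ ends, so a histone message that ends at the stem-loop without a tail is outside what it is built to capture. CUT&Tag mapped HA-tagged RHOX10 in germline stem cells, and 1 merged list of 5147 peaks from 3 RHOX10 libraries was used here.

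The stem-loop is the part of these messages that sets them apart from other mRNAs, so a few are shown, each for a gene the results turn on. They were read from the RefSeq GRCm38.p6 genome on the gene's own strand, with the 16 bases of the stem-loop in capitals and 5 bases on each side.
Hist1h1a, chr13:23764387-23764412, plus strand: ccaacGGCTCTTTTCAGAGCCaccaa
Hist1h2ba, chr13:23933725-23933750, minus strand: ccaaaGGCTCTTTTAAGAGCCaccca
Hist1h4j, chr13:21735432-21735457, plus strand: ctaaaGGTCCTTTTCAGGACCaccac
Hist1h4m, chr13:21812124-21812149, plus strand: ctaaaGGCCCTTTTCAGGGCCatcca
Hist1h2bc, chr13:23684642-23684667, plus strand: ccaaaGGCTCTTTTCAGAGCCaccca
Hist3h2a, chr11:58955167-58955192, plus strand: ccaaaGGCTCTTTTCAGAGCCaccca
The search was for GGNNNNTNNNAGNNCN on the gene's strand within 150 bases after the stop codon, with all 6 stem pairs formed (G-T pairs allowed). It found a match in 66 of the 67 genes (98.5%) and in 13 of 21685 other protein-coding genes (0.0599%). The exception was Hist2h2be. In 41 genes the loop was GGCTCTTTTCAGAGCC, in 9 it was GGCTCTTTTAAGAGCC and in 8 it was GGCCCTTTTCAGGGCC. It started a median of 31.5 bases after the stop codon, with a range of 22 to 59.

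What follows the stem-loop in the annotation divides the family. In 27 genes the GENCODE M21 exons run at least 100 bases past it, and in 39 they end before it or fewer than 100 bases past it. Those 39 are called genes that end at the loop. In some of them, such as Hist1h4k and Hist2h2bb, the exons stop at the stop codon, before the loop. Hist1h4a, with 108 exonic bases past the loop, was the member just inside the limit of 100 bases and Hist1h3c, with 74, the one just outside. Hist1h2bc has 733 such bases, part of them in a spliced downstream exon, and Hist3h2a has 1643. AATAAA or ATTAAA, the letters of the common polyadenylation signals, was present past the loop, or past the coding sequence in Hist2h2be, in the annotated exons of 22 genes.

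The RNA-seq table held 6602089 to 8278887 counts per library and the iSLAM-seq table held between 9419615 and 12645845. Levels are given as CPM, a gene's counts relative to the library total after TMM scaling (a trimmed mean over genes), on the usual scale. In RNA-seq, 8 genes above 1% each took 73.8 to 79.4% of the counts. The other genes shared 1379870 to 1724651 counts in WT libraries, of totals from 6602089 to 8278887. In KO libraries they shared 1717781 to 2128523 counts, of totals from 6635298 to 8203520. The histone genes took 0.183 to 0.191% of the counts in WT libraries and 0.152 to 0.156% in KO libraries. In iSLAM-seq their share was 0.024 to 0.0306% in Ctrl and 0.0356 to 0.0406% in Rhox10 libraries. The Rhox10 gene itself had 3 to 10 counts in WT libraries and 4 to 11 in KO libraries, so its counts do not check the genotype labels, and KO below means the libraries labelled null. In iSLAM-seq, Rhox10 stood at 0.202 to 2.42 CPM in the 10 induced Ctrl libraries and 34.1 to 46.7 CPM in the 10 induced Rhox10 libraries. Nothing in the labels says that the iSLAM-seq replicates were separate cultures, so p-values there measure the spread between these libraries, which may be technical.

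In the libraries from sorted germ cells, which also held markers of other cell types, nearly every measured histone gene was lower in KO. Of the 61 members that passed the filter on low counts, 56 fell and none rose (edgeR's quasi-likelihood test, Benjamini-Hochberg adjusted p under 0.05), with a median log2 fold change of -0.62. The background was 18.9% of 13538 tested genes lower and 18.6% higher, with a median of 0.003. All 4 KO libraries lay below all 4 WT libraries in 56 members, against 16.4% of all tested genes. Summed over the family, the level was 2057 to 2167 CPM in the WT libraries and 1365 to 1405 CPM in the KO libraries, so the ranges did not overlap. These directions rest on TMM scaling, which sets the typical gene at no change; the values under other scalings are given below.

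Hist1h1a, a linker histone gene of dividing cells, fell furthest. Its level was 49.6, 48.5, 51.5 and 46.0 CPM in the WT libraries and 23.2, 25.0, 21 and 21.5 CPM in the KO libraries. Every KO library was below every WT library, and the log2 fold change was -1.10 (SE 0.0658, adjusted p = 7.79e-18). Hist1h2ba, the testis form of H2B, was at 14.7, 14.6, 14.1 and 14.4 CPM in WT and at 8.74, 6.09, 7.09 and 8.61 CPM in KO. The 2 groups were again apart, with a log2 fold change of -0.91 (SE 0.115, adjusted p = 1.95e-08). Hist1h2bp, another H2B gene, gave 24.5, 25, 22.9 and 24 CPM in WT against 13.7, 12.6, 12.7 and 13.9 CPM in KO, a log2 fold change of -0.87 (SE 0.0838). Hist1h4j and Hist1h4m encode H4, and Hist1h3a encodes H3. Hist1h4j averaged 41.3 ± 1.88 CPM in WT and 23 ± 1.57 CPM in KO (SD, n = 4). Hist1h4m averaged 45.9 ± 3.24 and 26.4 ± 1.22 CPM, and Hist1h3a 45.6 ± 4.61 and 26.8 ± 1.94 CPM. Their log2 fold changes were -0.85, -0.80 and -0.76.

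**Figure D1:**
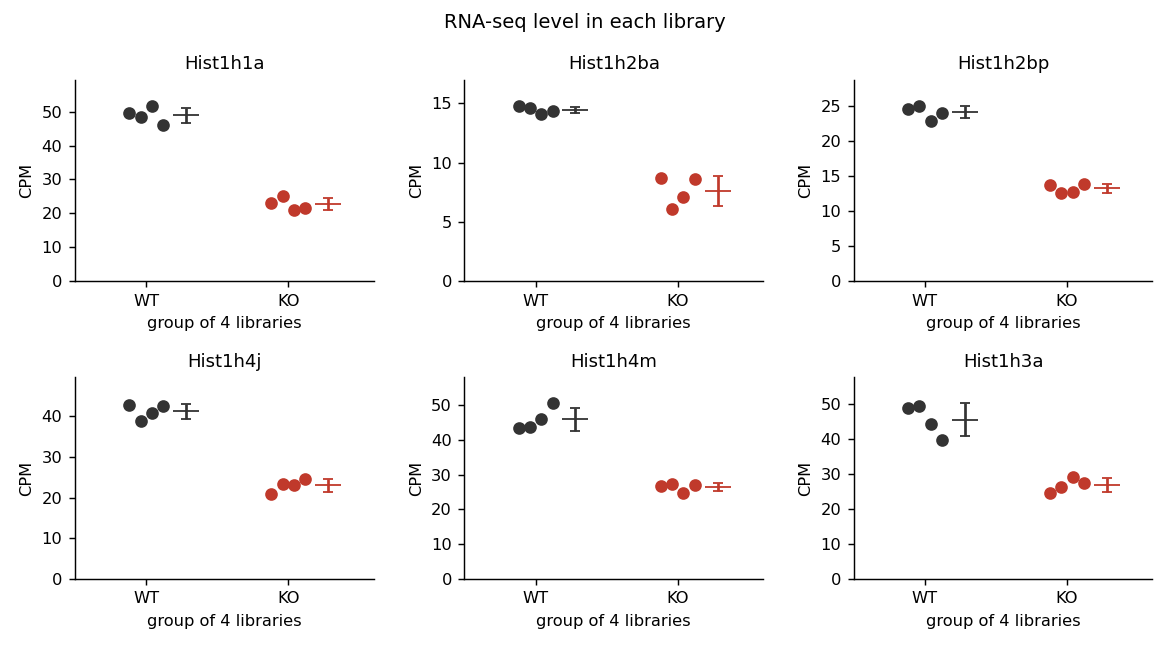
CPM in each RNA-seq library (points) for the 6 histone genes with the largest fall, with the mean and SD of each group of 4 beside the points. In every panel the 4 KO libraries lie below the 4 WT libraries, under TMM scaling; with scaling to germline genes only Hist1h1a keeps its call.

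The fall was spread over the classes of histone. For H1, 4 of 6 tested genes fell (median log2 fold change -0.41); for H2A it was 14 of 15 (-0.61), for H2B 15 of 16 (-0.60), for H3 11 of 11 (-0.62) and for H4 12 of 13 (-0.68). Class sums, in CPM with their SD over 4 libraries, went from 176.7 ± 3.5 to 118 ± 4.67 for H1, from 411 ± 14.1 to 266 ± 11 for H2A, from 504 ± 20.9 to 337 ± 9.08 for H2B, from 566 ± 28.4 to 371 ± 19.4 for H3 and from 459 ± 5.54 to 288 ± 4.62 for H4. Members that did not pass the test were Hist1h1b, Hist1h1t, Hist1h2bh, Hist2h2ac and Hist4h4, with log2 fold changes between -0.26 and -0.11. Both kinds of annotation took part: 35 of 37 tested genes that end at the stem-loop fell, and 21 of 24 that run past it.

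**Figure D2:**
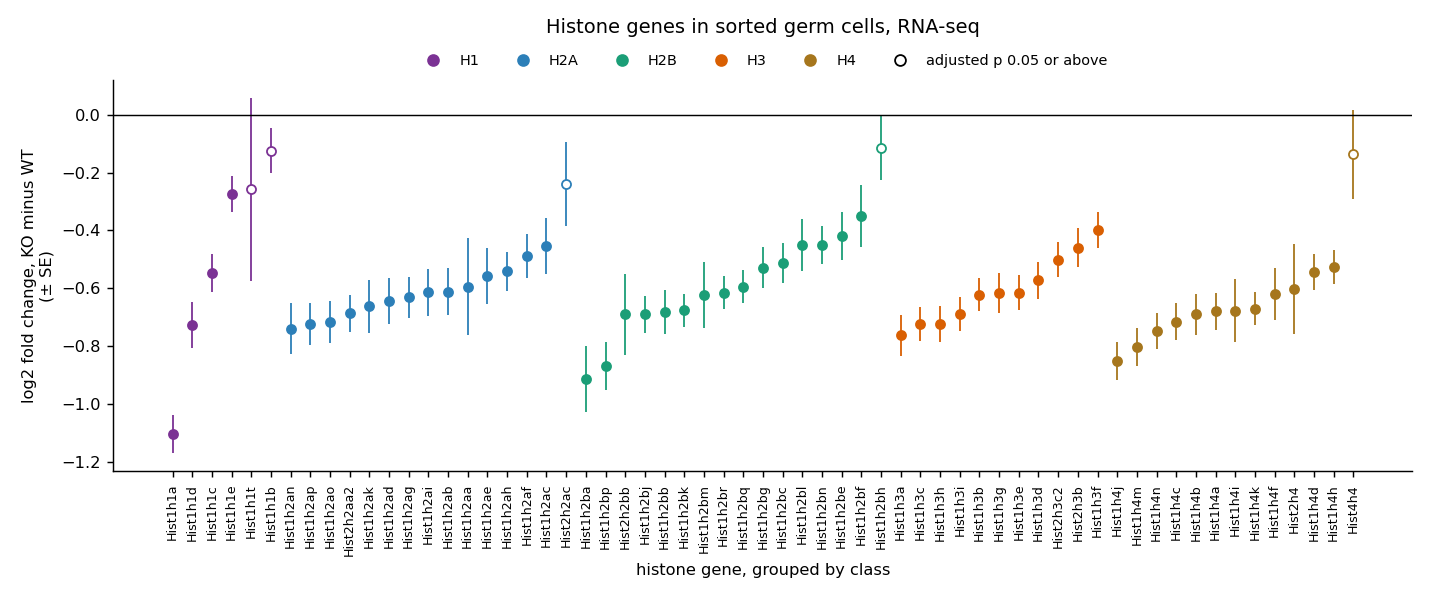
Log2 fold change, KO minus WT, with its SE for the 61 histone genes tested in RNA-seq, grouped by histone class; open symbols did not pass the test. Values run from -1.10 (Hist1h1a) to -0.11 (Hist1h2bh), all below 0 under TMM scaling, whereas scaling to germline genes puts their median at 0.08.

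The linker genes differed most among themselves. Hist1h1d fell by 0.73 and Hist1h1c by 0.55 on the log2 scale, and Hist1h1e fell by 0.27 (adjusted p = 6.08e-04, edgeR). Hist1h1b was at 21.4, 21.3, 20.5 and 22.4 CPM in WT and 20.4, 18.5, 19.8 and 19.8 CPM in KO. Its KO libraries were all below its WT libraries, yet the log2 fold change of -0.12 (SE 0.0783) did not pass (adjusted p = 0.237, edgeR). Among testis histones, Hist1h2aa, a testis form of H2A, was low and fell from 5.78 ± 0.682 to 3.87 ± 0.457 CPM (SD, n = 4; log2 fold change -0.59). Hist1h1t, the linker histone of spermatocytes, had 6 to 15 counts per library, and its log2 fold change of -0.26 (SE 0.316) did not pass the test. The 6 members too low to test were Hist2h2ab, Hist2h2be, Hist2h2aa1, Hist2h3c1, Hist3h2a and Hist3h2ba.

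By level per kb of exon, the most abundant members over the 8 libraries were Hist1h4k (145 CPM per kb), Hist1h3h (116), Hist1h3i (112), Hist1h2bk (109), Hist1h3b (94.8) and Hist1h4m (89.9). All 6 genes fell, with log2 fold changes from -0.80 (Hist1h4m) to -0.62 (Hist1h3b). The annotation of each of them ends at or near the stem-loop. Dividing by annotated exon length favours short annotations by construction, so no conclusion is drawn from that pattern. Without this division, Hist1h2br (2212 exon bases, annotated past the loop) averaged 59.65 CPM in WT and 39.04 CPM in KO. Hist1h4k (312 bases) was lower, at 55.44 and 34.9 CPM. Hist1h3b (71.2 and 46.33 CPM) and Hist1h2bk (63.83 and 40.01 CPM) stayed above Hist1h2br. No member held more than 3.4% of the family's counts, and the 10 largest members held 27.5% of its counts.

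The members are copies of each other in part, and so are not independent measurements. At least 50% of the 50-base exon windows of 30 members recur in another member, and the 67 genes encode 30 distinct proteins. Hist1h2bq and Hist1h2br share 1863 windows, and their counts over the 8 libraries, 2732 and 2844 in all, kept 1 ratio more closely than counting noise would give (chi-square 0.187 on 7 degrees of freedom). That pair is an extreme one. The median chi-square was 5.03 over 75 pairs with at least 200 shared windows, 8.04 over 246 pairs that share fewer and 6.74 over 52 pairs with none. How reads that match several genes were counted is not given in the sources used here. Among the 32 tested members with under 50% of windows shared, 27 fell, with a median of -0.58, and among the 41 that overlap no other gene, 37 fell.

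The direction depended on the scaling. When the libraries were scaled by their total counts, which include the 8 genes above 1%, 44 of 61 members fell and 1, Hist1h1b, rose. Of all 13538 tested genes, 629 then fell and 7229 rose, with a median of 0.35. When the libraries were scaled to a short list of germline genes, 12 members rose and 1, Hist1h1a, fell. Of all tested genes, 10948 then rose and 120 fell. The members' median was 0.08 and that of all genes 0.70. Relative to the median of all genes the members' median was -0.62 under each of the 3 scalings. A change of scaling moves all genes by about the same amount, so this distance stays the same by construction. The germline genes themselves (such as Ddx4 and Dazl) were lower in KO under TMM scaling, 5 of 7 tested, with a median of -0.87. Their values ran from -1.08 (Dazl) to -0.07 (Pou5f1, the gene for OCT4, adjusted p = 0.783, edgeR). Sycp3, at -0.50, did not pass either. The germline-list scaling rests on these 7 genes, which did not move alike. Erythroid genes rose in KO, 7 of 7 tested, their summed level going from 14 to 16.9 CPM in WT libraries to 98.8 to 108.5 CPM in KO libraries. Stromal genes rose too, 6 of 6 tested, from 427 to 454 CPM to 686 to 723 CPM, and so did Leydig genes, 4 of 4 tested, from 32 to 33.8 CPM to 44.7 to 53.3 CPM. Slc4a1 was at 0 in all WT libraries and no other marker of those 3 lists was at 0 in a whole group. Of the 4 endothelial genes 3 rose, of the 5 macrophage genes 2 rose, and of the 8 Sertoli genes 1 rose and 1 fell. Germline genes summed to 168 to 184 CPM in WT libraries and 88.8 to 98.8 CPM in KO libraries. Sertoli genes summed to more, 488 to 529 CPM in WT and 532 to 559 CPM in KO. The part of these other cells in the histone result was not tested, and fewer cells of a type cannot be told apart from less RNA per cell.

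**Figure D3:**
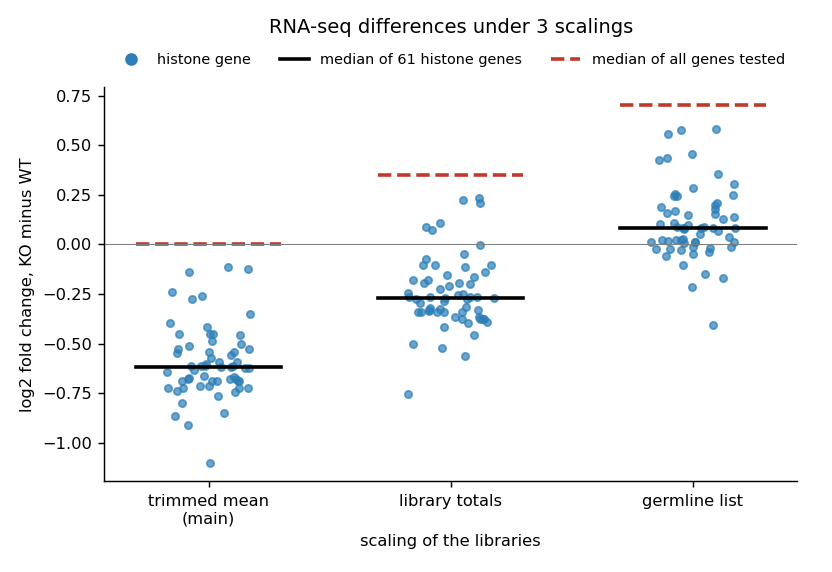
Log2 fold change, KO minus WT, of the 61 tested histone genes (points) under TMM scaling, scaling by library totals and scaling to germline genes; the black line is their median and the dashed line the median of all 13538 tested genes. The histone median moves from -0.62 to -0.27 to 0.08. Its distance to the dashed line is -0.62 each time by construction, since a change of scaling moves all genes by about the same amount.

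Genes that act in S phase were also lower in KO under TMM scaling. Of 32 tested genes for DNA replication, 21 fell and none rose, with a median log2 fold change of -0.37. With library totals 8 fell and 4 rose (median -0.02), and with germline-list scaling none fell and 18 rose (median 0.33). The replicative helicase gene Mcm2 fell from 44.6 ± 1.52 to 24.2 ± 2.82 CPM (SD, n = 4; log2 fold change -0.88) and Pold1, the catalytic subunit of DNA polymerase delta, from 22.3 ± 3.33 to 12.8 ± 1.15 CPM (-0.80). Pcna fell by 0.33 on the log2 scale. Among genes that make and process histone messages, 5 of 21 tested fell and 2 rose under TMM scaling. None fell and 10 rose with library totals, and none fell and 19 rose with germline-list scaling. Over all 13538 tested genes, 7229 rose with library totals and 10948 with germline-list scaling. Slbp, the stem-loop binding protein, fell from 29.8 ± 1.91 to 25.9 ± 2.78 CPM, a log2 fold change of -0.20 under TMM scaling (adjusted p = 0.0336, edgeR). The sign turned with library totals (0.15, adjusted p = 0.0755, edgeR) and with germline-list scaling (0.50, adjusted p = 2.7e-06, edgeR). The next values are under TMM scaling. Cpsf3, the nuclease that cuts the message, fell by 0.44, Cstf2 by 0.34, Ncbp1 by 0.29 and Cdc25a by 0.25, and Srrt and Pou2f1 rose by 0.34 and 0.22. Npat, at 21.1 ± 1.04 and 20.5 ± 2.13 CPM, did not pass (log2 fold change -0.04).

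Replacement histones are made outside S phase from ordinary polyadenylated messages. Under TMM scaling, 6 of 12 tested genes fell and none rose, with a median of -0.22. With library totals none fell and 5 rose (median 0.13), and with germline-list scaling none fell and 9 rose (median 0.48). The values that follow are under TMM scaling. H2afx, which carries the stem-loop as well, fell from 38.2 ± 2.81 to 28 ± 3.31 CPM (SD, n = 4; log2 fold change -0.46), and H3f3c, H2afy2 and H2afv fell by 0.41, 0.38 and 0.36. H3f3a and H3f3b, the genes for H3.3, fell by 0.25 and 0.19. H2afz, for H2A.Z, was at 49.1 and 47.5 CPM and did not pass (log2 fold change -0.04).

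In the 3′ end data of cultured germline stem cells, a few members held most of the family's signal. Hist1h2bc alone had 24332 of 85703 histone counts over the 24 libraries (28.4%), and the 6 largest members held 63.1%. After Hist1h2bc, at a mean of 92.02 CPM, came Hist1h1e at 35.5, Hist1h1c at 30.8, Hist1h3d at 16.95, Hist1h4h at 15.9 and Hist3h2a at 14.3 CPM; with 1 read per message end, CPM needs no correction for length here. All of these but Hist1h4h have an annotation that runs past the stem-loop, and in Hist1h4h, with 46 bases past it, those bases hold a polyadenylation signal. The exons past the loop hold such a signal in Hist1h2bc, Hist1h1c and Hist3h2a too, but not in Hist1h1e and Hist1h3d. Genes annotated past the loop held 74.3% of the family's iSLAM-seq counts and 38.5% of its RNA-seq counts. Genes that end at the loop held 25.2% and 61.4%. Reads past a gene's annotated exons would be outside these counts.

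At the other end, 6 members had no count in any of the 24 libraries: Hist1h4m, Hist2h2aa1, Hist2h2aa2, Hist2h2bb, Hist2h3b and Hist2h3c1. A count of 0 over all libraries allows up to 0.0115 CPM (3 counts of 261858585, counting error only). Hist1h4m, whose stem-loop is shown above, had 200 to 372 counts in each RNA-seq library. Hist1h2bq and Hist1h2br, the near-identical pair, had 9 and 11 counts in all 24 libraries although their annotation runs past the loop. The annotated exons of Hist2h2bb and Hist2h3b stop before the end of the loop, so reads past that point would not be in their counts. The assays differ in cells, kit and counting at once, and these cannot be told apart.

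**Figure D4:**
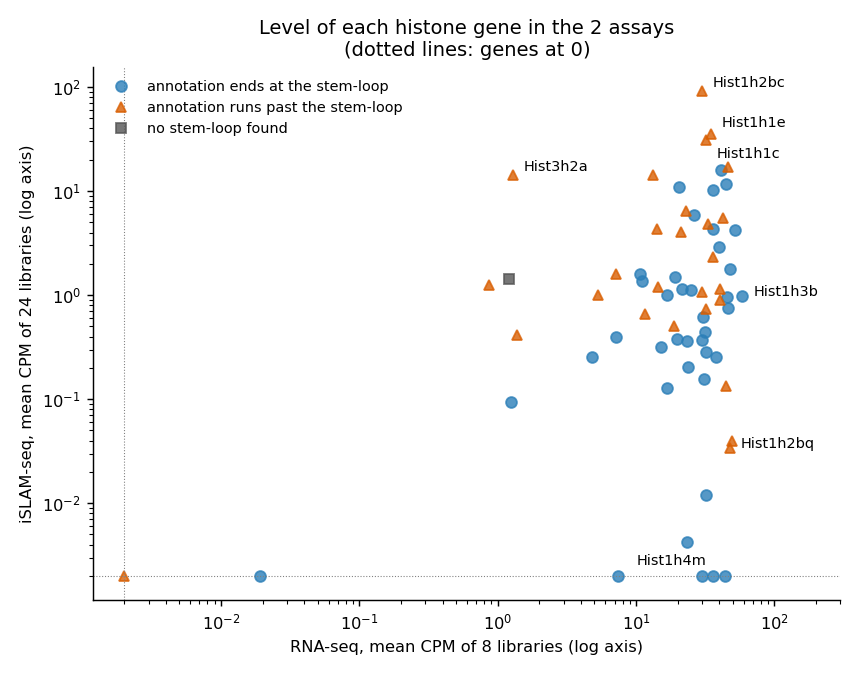
Mean CPM of each of the 67 histone genes in RNA-seq (8 libraries, horizontal, log axis) and iSLAM-seq (24 libraries, vertical, log axis), by what the annotation holds past the stem-loop; dotted lines mark genes at 0. The top of the vertical scale is held by genes annotated past the loop, led by Hist1h2bc, and Hist1h4m lies at 0 on that axis only.

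In the 3′ end data a minority of the members differed between the Rhox10 and Ctrl arms, nearly all of them higher in Rhox10. Averaged over 0.5 to 8 h, 13 of 46 tested members were higher in Rhox10 and 1 was lower, against 18.7% of 20642 tested genes higher and 18.4% lower (edgeR's quasi-likelihood test). The members' median log2 fold change was 0.43 and that of all genes 0.001. Of the 13 genes, 10 have an annotation past the stem-loop, out of 22 such genes tested, and 3 end at it, out of 23 tested. Of the 13, 12 were tested in RNA-seq, and all 12 fell in KO under TMM scaling, as did 56 of all 61 tested members. All 10 induced Rhox10 libraries lay above all 10 induced Ctrl libraries in 7 members, against 3.37% of all tested genes: Hist1h2bc, Hist1h2ac, Hist1h2be, Hist1h3d, Hist1h4h, Hist1h4i and Hist3h2a. Some of these overlap other genes on the same strand: Hist3h2a overlaps Trim17, Hist1h2ac overlaps Gm24991, and Hist1h2be overlaps Gm11398 and Hist1h1e. How reads in such overlaps were assigned is not given in the sources used here. The family's summed level was 245 to 305 CPM in the induced Ctrl libraries and 364 to 404 CPM in the induced Rhox10 libraries.

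Hist1h2bc, an H2B gene, gave the most precise value. Its lowest, median and highest levels were 51, 63.6 and 68.6 CPM in the 10 Ctrl libraries and 112, 123 and 136 CPM in the 10 Rhox10 libraries. The ranges were far apart, and the log2 fold change was 1.00 (SE 0.0498, adjusted p = 2.41e-13). Hist1h2ac, the H2A gene that starts beside it on the other strand, went from 1.87, 2.48 and 4.14 CPM to 4.21, 5.41 and 8.32 CPM, a log2 fold change of 1.15 (SE 0.157). Hist1h3d, for H3, went from 6.41, 11 and 14.5 CPM to 16.15, 21.4 and 29.6 CPM (1.02, SE 0.114). Hist1h2be, for H2B, went from 1.61, 2.63 and 3.36 CPM to 4.27, 5.78 and 6.79 CPM (1.13, SE 0.162). In these 3 genes too the ranges did not touch. Hist2h3c2, for H3, ran from 1.79 to 7.18 CPM in Ctrl and from 5.59 to 10.3 CPM in Rhox10, so its ranges overlapped (log2 fold change 1.15, adjusted p = 1.47e-05, edgeR).

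The other genes called higher were Hist1h4h (log2 fold change 0.89), Hist3h2a (0.84), Hist1h4i (0.69), Hist1h4c (0.67), Hist1h1d (0.67), Hist1h2bk (0.47), Hist1h1c (0.33) and Hist1h2ad. Hist1h2bk was the least stable of these calls: it was lost in 11 of the 24 fits that left out 1 library each, with an adjusted p of up to 0.105 (edgeR) and log2 fold changes from 0.39 to 0.63. Hist1h2ad rested on few reads: 6 counts in the 10 induced Ctrl libraries, 7 of which had none, and 35 counts in the 10 Rhox10 libraries. Its call was lost without the second Rhox10 library of 2 h, where 11 members were called higher. Among members with at least 10 counts per library on average, 12 were higher.

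Linker genes moved in both directions. Hist1h1e, the second most abundant message, was the member called lower: its lowest, median and highest levels were 28.6, 35.6 and 53.1 CPM in Ctrl and 22.1, 29.5 and 37.9 CPM in Rhox10 (log2 fold change -0.32, SE 0.0622, adjusted p = 2.15e-04, edgeR). Its annotation overlaps that of Hist1h2be, and reads there may have been assigned to either gene or dropped. Hist1h1c and Hist1h1d were higher, as given above. Hist1h1a and Hist1h1b, at medians of 10.3 and 10.7 CPM in Ctrl and 9.32 and 10.2 CPM in Rhox10, did not pass on average (adjusted p = 0.183 and 0.0746, edgeR). As a class, H1 summed to a median of 84.6 CPM in Ctrl and 86.8 CPM in Rhox10, with overlapping ranges, and H2B to 80.3 and 148 CPM with none. The H2B sum is mostly Hist1h2bc, at 92.02 of 113.9 CPM over the 24 libraries, and 3 of 13 tested H2B genes were higher. Hist1h2ba had a log2 fold change of -0.36 and did not pass, and Hist1h1t and Hist1h2aa were too low to test.

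The difference between the arms was present before the inducer was added. At 0 h, 5 members were higher in Rhox10 and none lower, against 6.56% of genes higher: Hist1h2ac, Hist1h3d, Hist1h2bc, Hist1h4h and Hist3h2a. Hist1h2bc was at 58.7 and 61.6 CPM in the 2 Ctrl libraries of 0 h and at 116 and 113 CPM in the 2 Rhox10 libraries, a log2 fold change of 0.93. All 13 genes called on average had a positive difference at 0 h. At 0.5 h 7 members were higher (background 7.94% of all genes) and at 1 h 7 were (background 6%). The 2 h libraries gave 9 (6.08%), those of 4 h gave 3 (6.47%) and those of 8 h gave 7 (8.06%). Hist1h2bc and Hist3h2a were called at each of the 6 times. Lower members were Hist1h1a, Hist1h1b and Hist1h1e at 0.5 h and Hist1h1e at 1 h. All 10 calls of 0.5 h were lost when only the 4 libraries of that time were fitted (edgeR; 10 members at an unadjusted p under 0.05), and the 2 Ctrl libraries of 0.5 h differed by 26.6 times counting noise.

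Whether the difference changed after induction was tested directly. The test called 0 of 46 members, against 2.39% of all genes, and DESeq2 also called 0. In the edgeR fit 2 members had an unadjusted p under 0.05, against 2465 of all 20642 tested genes. Hist1h2bc had log2 fold changes of 0.93 at 0 h and 1.00 on average, with an adjusted p of 0.993 for the change (edgeR). This test is weak: in simulated data it recovered 48 of 96 genes changed 3-fold and 16 of 97 changed 2-fold. Without the first Ctrl library of 0.5 h, which differed most from its replicate, 2 members were called, Hist2h3c2 and Hist1h1a.

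**Figure D5:**
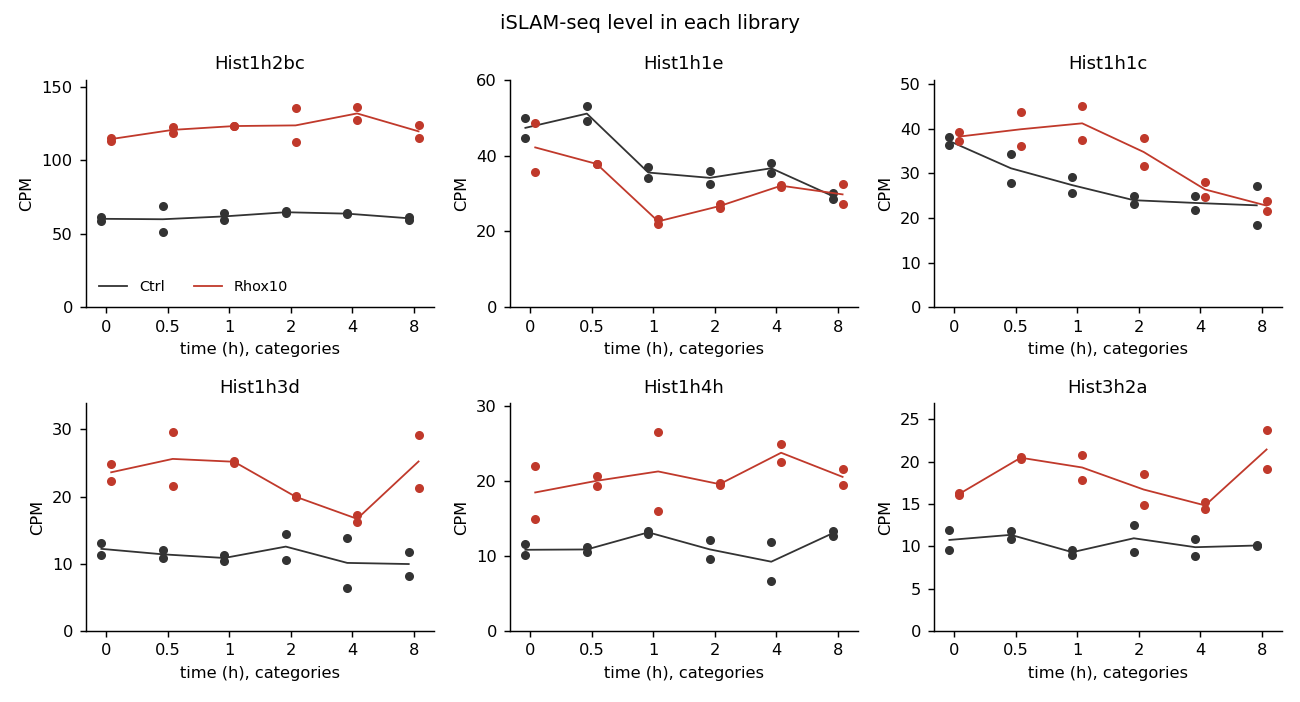
CPM of the 6 histone genes of highest iSLAM-seq level in each library (points) and the mean of the 2 libraries (lines) at 0, 0.5, 1, 2, 4 and 8 h, spaced as categories, for Ctrl (dark) and Rhox10 (red). Hist1h2bc is at 58.7 and 61.6 CPM in Ctrl and 116 and 113 CPM in Rhox10 already at 0 h, and at 8 h the points of the 2 arms overlap in Hist1h1e and Hist1h1c.

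S phase genes were lower in the Rhox10 arm. Of 32 tested replication genes 25 fell and none rose on average (median log2 fold change -0.36), against 18.4% of all 20642 tested genes lower. At 0 h 16 fell, against 892 of all 20642 tested genes. Lig1, the DNA ligase of replication, went from a median of 1291 CPM in Ctrl to 884 CPM in Rhox10 (-0.61), and its ranges of 1205 to 1592 and 786 to 926 CPM did not overlap. Of 23 tested genes for histone message production, 14 fell and none rose. Slbp fell by 0.40 on the log2 scale, from a median of 52.5 to 42.3 CPM, Casp8ap2 by 0.31 and Npat by 0.31, from 150 to 125 CPM. Srrt, Cpsf3 and Cstf2 fell by 0.31, 0.28 and 0.27. Among 13 replacement histones, H2afj rose from a median of 36.4 to 55.5 CPM (log2 fold change 0.56), and H2afv and H1fx fell by 0.24 and 0.19. Markers of other cells also differed between the arms: all 3 endothelial genes tested fell (sums of 30.3 to 46 CPM in Ctrl and 18.1 to 31.1 CPM in Rhox10), 3 of 6 stromal genes rose and 1 fell (793 to 1369 and 878 to 1514 CPM), and 3 of 5 Sertoli genes rose and 1 fell (256 to 493 and 301 to 630 CPM, with Amh at 0). Of 3 macrophage genes 1 rose and 1 fell (20.4 to 34.4 and 17.8 to 24.8 CPM), and neither of the 2 Leydig genes tested passed (8.96 to 17.1 and 8.04 to 14.1 CPM, with Hsd3b1 and Insl3 at 0). The erythroid sum was at most 1.88 CPM in any induced library. Of 8 germ cell genes 4 fell (median -0.34). Their part in the histone result was not tested.

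How many of these genes had a RHOX10 peak nearby depended on how peaks were assigned. The authors' annotation linked peaks within 3 kb of a transcription start site to 7 members (10.4%), against 18.6% of 21992 annotated protein-coding symbols. Counting any peak within 3 kb of a GENCODE M21 start gave 17 members (25.4%) against 23.2% of 22028 genes, because neighbouring histone genes share peaks. All peaks linked to members scored below the list's median of 127.5 on the authors' scale. The highest was the peak at chr13:23683690-23684313, with a score of 105.4, which lies between Hist1h2ac and Hist1h2bc, centred 53 bases before the start of the first and 198 bases before the start of the second. Next came Hist2h2bb (97.2), Hist1h2ad (71.7), Hist2h2ab (58.2), Hist1h2bp (43.2), Hist1h2ba (41.7) and Hist1h2bb (31.5).

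The 300 bases about the centre of the Hist1h2ac peak are shown because both genes beside it were higher in the Rhox10 arm, and those about the Hist1h2bp peak because that gene was among the largest falls in KO under TMM scaling. Both are on the plus strand of GRCm38, with CCAAT and TATAA, on either strand, in capitals.
Hist1h2ac peak, chr13:23683852-23684151: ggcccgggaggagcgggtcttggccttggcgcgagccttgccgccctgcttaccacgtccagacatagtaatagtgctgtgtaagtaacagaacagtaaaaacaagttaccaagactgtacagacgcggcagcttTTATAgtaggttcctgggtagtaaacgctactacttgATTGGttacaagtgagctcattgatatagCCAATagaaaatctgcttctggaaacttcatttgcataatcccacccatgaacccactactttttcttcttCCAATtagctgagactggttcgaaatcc
Hist1h2bp peak, chr13:21787217-21787516: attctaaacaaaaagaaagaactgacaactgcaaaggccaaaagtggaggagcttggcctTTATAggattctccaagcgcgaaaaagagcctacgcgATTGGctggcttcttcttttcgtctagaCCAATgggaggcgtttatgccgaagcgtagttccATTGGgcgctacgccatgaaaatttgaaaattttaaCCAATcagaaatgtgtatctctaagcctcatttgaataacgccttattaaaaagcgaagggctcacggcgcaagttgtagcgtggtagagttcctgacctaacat
The first window holds 3 matches to CCAAT, 1 to TATAA and 3 to TAAT, the core that homeodomains commonly bind; the second holds 4, 1 and 1. Of the 8 windows about peaks the authors annotated to members, 75% held TAAT, 62.5% CCAAT and 50% TATAA, against 26.8%, 33.9% and 5.62% of the windows about all peaks. The members' RefSeq promoters, with or without a peak, held TAAT in 69.4% of cases. A match is a description of the sequence and not a measured site.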

How the data were processed

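Members and gene lists were chosen with earlier results of these data known. The RNA-seq and iSLAM-seq tables hold raw counts per gene that the authors deposited, per the file headers, with exon length beside them; the iSLAM-seq table does not say whether converted reads were counted apart. Per the submitters' processing notes, the build was GRCm38 and the tools named, with no role given, were STAR 2.5.2b, Bowtie2 2.2.5, limma 3.42.2, Subread, featureCounts, DESeq2, SAMtools and HOMER. The peak score and the other columns (length, distance to the start site) are the authors' deposited values, per the file headers; whether control libraries served as background is not given in the sources used here. All 55536 identifiers matched GENCODE M21.

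Counts were tested with edgeR 4.0.16 (quasi-likelihood, TMM, filterByExpr, Benjamini-Hochberg) in R 4.3.3 over all genes: RNA-seq by genotype, iSLAM-seq with 12 group means. SEs are the log2 fold change over the square root of F. On simulated data the RNA-seq fit recovered 83 of 94 genes changed 2-fold and the averaged iSLAM-seq fit 63 of 97. Calls have an adjusted p under 0.05; DESeq2 1.42.0 was an alternative. Named genes were the 6 called members of largest change per direction, the 6 of highest level per assay, the testis and linker genes, those with annotated peaks and those opposite to most called members; of the processing and replacement lists, Slbp, Npat and up to 6 called genes. S phase, germline and marker genes, H2afz, Hist1h2bq and Hist1h2br were named after their values were seen. Sequences came from the RefSeq GRCm38.p6 genome with samtools. RNA-seq replicates differed by 1.22 to 4.49 times counting noise (chi-square per degree of freedom), and iSLAM-seq replicates by 2.61 to 4.57 apart from the pair of Ctrl at 0.5 h (26.6).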

Additional observations from a re-analysis of the deposited data

How the results depend on the processing

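The count of histone genes lower in KO was 55 with DESeq2, 56 with its size factors and with TMM without dominant or histone genes, 58 with no filter, 57 when genes needed 1 CPM on average, and 56 with the replicate block. Same-numbered libraries did not deviate together on average over all tested genes (mean correlation -0.00168 in RNA-seq and 0.0115 in iSLAM-seq). This average weighs every gene alike, so it cannot exclude a shared batch. In RNA-seq, library 4 differed most from its replicates in both genotypes, by 4.02 to 4.49 times counting noise in KO and 1.72 to 2.71 in WT. The other pairs gave 1.37 to 1.54 in KO and 1.22 to 1.63 in WT. The count of lower genes was 44 with library totals, with 1 higher, and 1 with germline-list scaling, with 12 higher; 1 reached a log2 fold change of 1 in size. Restricting the family gave 37 (members overlapping no other gene) and 27 (under 50% of windows shared, chosen after seeing the data), by fewer genes tested. Leaving out 1 library gave 56 to 57 lower and 0 higher. All 61 tested members had a negative log2 fold change under TMM scaling; 6 were positive with library totals and 47 with germline-list scaling. Among the members named by the rule and tested in RNA-seq, those that turned positive with germline-list scaling were Hist1h4k 0.0298, Hist1h1t 0.44 (passing no test in either fit), Hist1h3i 0.0126, Hist1h2bk 0.0245, Hist1h3b 0.0826, Hist1h2aa 0.11, Hist1h1b 0.58, Hist1h1c 0.15, Hist1h1e 0.43, Hist1h2ac 0.25, Hist2h2bb 0.0126, Hist1h2ad 0.0538 and Hist1h2bb 0.0161. Members named for iSLAM-seq turned positive as well: Hist1h2bc 0.19, Hist1h2be 0.28, Hist1h3d 0.13, Hist2h3c2 0.20 and Hist1h4h 0.18. With library totals the named members that turned positive were Hist1h1b (0.22), Hist1h1e (0.0749) and Hist1h1t (0.0861).

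For averaged iSLAM-seq, higher members numbered 11 to 15 and lower 1 to 2 when 1 library was left out. There were 11 higher without the second Rhox10 library of 2 h and 15 without the second Ctrl library of 0.5 h. There were 2 lower without the first Rhox10 library of 1 h. Higher and lower members numbered 16 and 1 without the 0.5 h libraries, and 13 and 1 with the replicate block. A log2 fold change of 1 in size was reached by 5 higher and 0 lower. Among the 35 tested members overlapping no other gene, 9 were higher and 0 lower. The change from 0 h called 0 to 2 members when 1 library was left out, 2 without the first Ctrl library of 0.5 h and 0 with the replicate block. With only the 4 libraries of a time, edgeR called 0 members at 0.5 h (10 at an unadjusted p under 0.05) against 10 in the fit over all libraries, and 5 at 4 h against 3; the cause was not tested. Peaks at or above the median score were linked to 0 members, and peaks within 3 kb of a GENCODE start to 17 in place of 7. Low counts limit iSLAM-seq: 10 tested members had under 10 counts per library on average.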

Other observations

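Promoters of the family carried 2 short motifs more often than promoters at large. RefSeq promoters, from 250 bases before to 50 bases after the start (GRCm38.p6), were found for 61 members, 62 promoters in all. CCAAT, on either strand, was present in 53 of them (85.5%), against 37.4% of 32851 promoters, and TATAA in 49 (79%), against 24.9%. TAAT was present in 43 (69.4%), against 58%. The 13 other protein-coding genes with the stem-loop motif included H2afx and H2bfm, which are histone genes outside the naming rule.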
